A study of Mus musculus with 8 samples.

Results

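The 6 mouse Iroquois genes lie in a pair of clusters of 3 genes each, Irx1, Irx2 and Irx4 on chromosome 13 and Irx3, Irx5 and Irx6 on chromosome 8. They were taken by name, 6 of 21887 protein-coding genes of the RefSeq table (GRCm38, the assembly also called mm10). The measurement was monoubiquitinated histone H2A (H2AK119ub), mapped by chromatin immunoprecipitation and sequencing. The cells were epidermal progenitors of the basal layer, taken from mouse pups on postnatal day 0. They were sorted from back skin epidermis as EpCAM-positive, Sca1-positive and high in α6-integrin. The groups used here were Eed cKO, labelled Eed-/- for genotype, and Control, each with 2 H2AK119ub libraries and 1 deposited peak list. Whether and how both libraries entered that list is not given. The Cre driver of the conditional knockout, the alleles of the control mice and whether animals were pooled are not given in the sources used. Libraries and inputs of other kinds were not analysed here.

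Iroquois proteins are homeodomain transcription factors of the TALE class, whose homeodomain carries an extra loop. They pattern the heart, limbs, retina and neural tube, and by sequence the clusters form paralogous pairs: Irx1 with Irx3, Irx2 with Irx5, and Irx4 with Irx6. H2AK119ub is placed by Polycomb repressive complex 1 (PRC1), and Eed belongs to the core of Polycomb repressive complex 2 (PRC2), the H3K27 methyltransferase. The methylated lysine is bound by some forms of PRC1, while other forms reach chromatin without it, and genes of developmental transcription factors are typical sites of both marks.

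The peak lists give chromosome, start and end only, so position and width are the measured quantities. Each list stands alone for its genotype. The values below therefore have no replicate error and no test, and they compare the lists rather than the conditions. Read depth and the calling threshold are unknown, and their part in any difference between the lists was not tested. For scale, the Eed cKO list held 2541 peaks over 16.6 Mb and the control list 4621 peaks over 29.0 Mb, so over the genome the Eed cKO list covered 57.3% as much sequence. No peak of either list lay at an end of Eed or of 7 basal keratinocyte genes, Krt5, Krt14 and Trp63 among them. All 4 Merkel cell genes examined, Atoh1, Sox2, Krt8 and Krt18, had such peaks in both lists, and 0 of 3 leukocyte genes did in either. Of 4 melanocyte genes, 1 had such a peak in Eed cKO and 2 in control, and of 3 fibroblast genes 1 in Eed cKO and 2 in control, with Sox10 and Pdgfra marked in control alone.

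All 6 Irx genes had an H2AK119ub peak in Eed cKO within 2000 bp of an end of the gene, against 5 of 6 in control. Over all protein-coding genes the shares were 7.4% in Eed cKO and 11.7% in control. Irx2 was the member without a control peak. Peaks of both lists at a gene end were found at 5 of 6 members and 5.71% of all genes, and an Eed cKO peak alone at 1 of 6 and 1.7% of all genes. Of the 5 members with a control peak there, all 5 also had an Eed cKO peak, against 49% of all control-marked genes. Within the gene span and 50 kb on either side, 6 of 6 members had an Eed cKO peak (20.9% of all genes) and 5 of 6 a control peak (29.8% of all genes). Irx2 had Eed cKO peaks and no control peak in that window, as did 3.18% of all genes. The 6 windows held 9 Eed cKO peaks and 7 control peaks. No peak was shared by members. The covered length summed to 89.3 kb in Eed cKO and 56.7 kb in control, or 1.58 times as much in Eed cKO, while the genome-wide total was lower in Eed cKO. The members did not move together: covered length was larger in Eed cKO at Irx2, Irx4 and Irx5 and smaller at Irx1, Irx3 and Irx6. Over the gene spans without the flanks, Irx1 was wholly covered in both lists, and Eed cKO exceeded control by 0.117 kb at Irx3 and 0.19 kb at Irx6. Within 50 kb, covered length over all protein-coding genes was larger in Eed cKO at 10.7% and smaller at 22.3%. Among the 7209 genes with a peak of either list in their window, 32.4% had the larger coverage in Eed cKO.

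**Figure D1:**
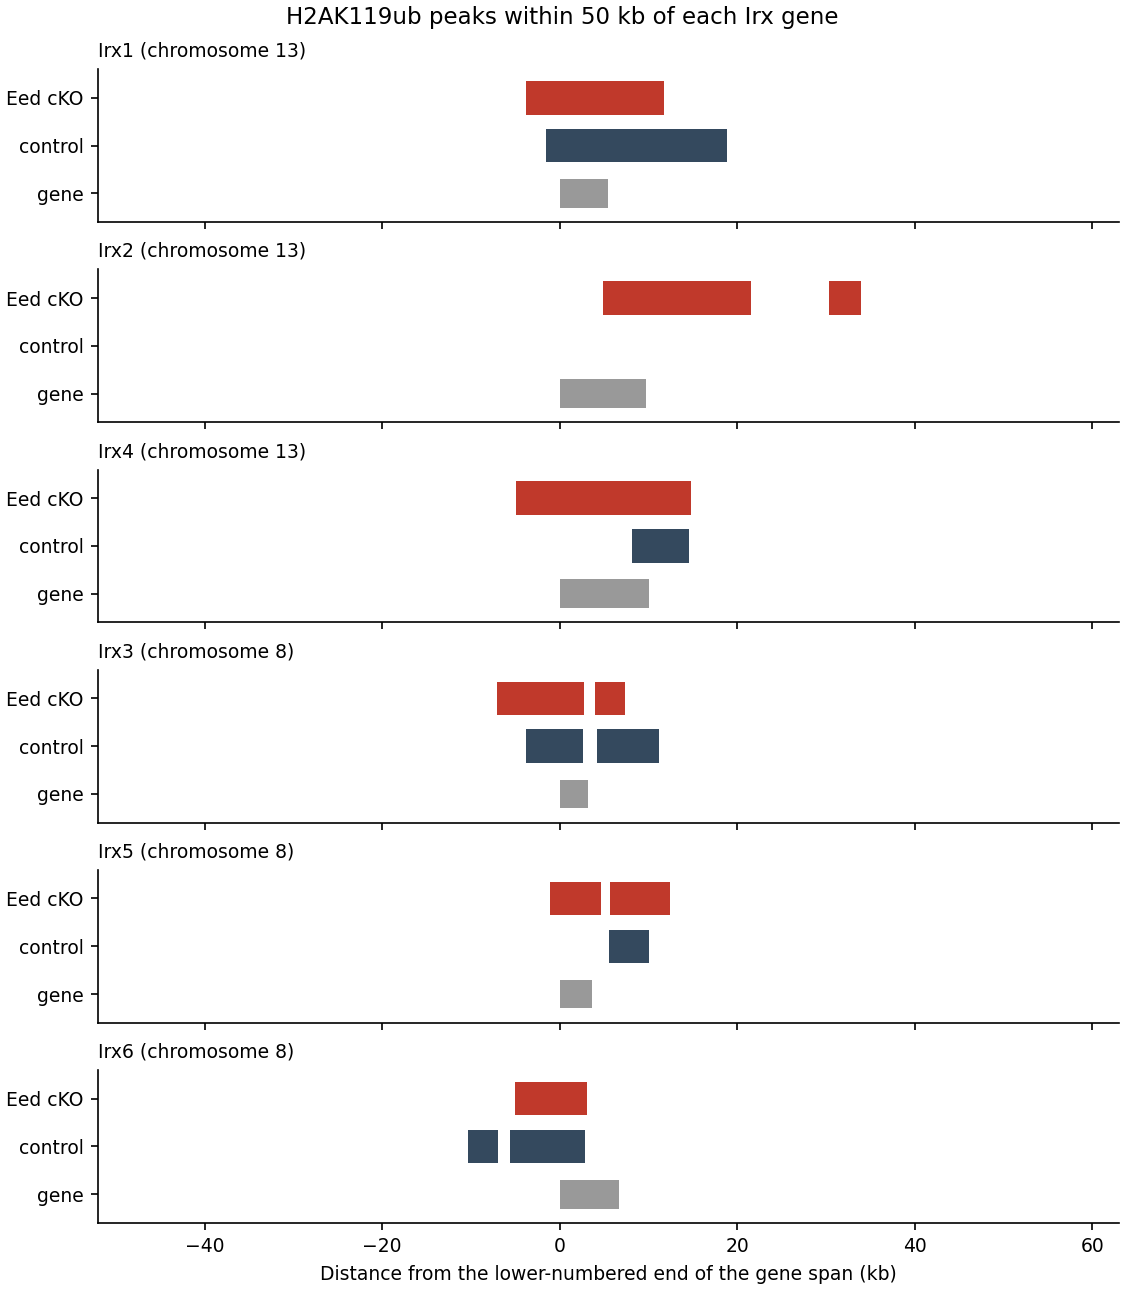
Peaks within 50 kb of each Irx gene, plotted by distance in kb from the lower-numbered end of the gene span: Eed cKO peaks in red, control peaks in dark blue, the gene in grey, each cut at the window's edge. Irx2 has 2 Eed cKO peaks and no control peak, the Eed cKO peaks at Irx4 and Irx5 span the whole gene where the control peaks do not, and at Irx1, Irx3 and Irx6 the lists lie over much the same sequence.

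Irx2, the middle gene of the chromosome 13 cluster (gene span chr13:72624430-72634196, 9.77 kb), showed the largest difference between the lists among the 6 members. An Eed cKO peak of 16.6 kb (chr13:72629315-72645952) covered 50.0% of the gene span and ran on past its higher-numbered end. Of all Eed cKO peaks, 4.29% were at least that wide. A second peak of 3.59 kb (chr13:72654746-72658331) followed 20.6 kb beyond the gene. Together they covered 20.2 kb in Eed cKO, 18.4% of the window, against 0 kb in control. The nearest control peaks lay 251 kb below the gene and 634 kb above it, at Irx4, so Irx2 sat in a stretch of 894 kb with no control peak.

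The 50 kb limit cut through the Eed cKO domain at Irx2. The next Eed cKO peak, 7.58 kb wide (chr13:72684213-72691791), began 17 bp outside the window, and 4 more followed up to 41.1 kb outside it. Their widths were 3.13, 12.1, 11.1 and 3.12 kb. With Eed cKO peaks joined across gaps of up to 50 kb, a view chosen after the values were seen, 8 peaks formed a run of 143 kb (chr13:72629315-72772145), of which 59.7 kb was covered. The run met no control peak, and it ranked 18 by length among 1780 such runs in the Eed cKO list. It lay entirely on the higher-numbered side of the Irx2 start site, over and beyond the gene.

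The Irx2 start site of the RefSeq promoter entry was free of peaks in both lists. It is at 72628820 on the plus strand, and the Eed cKO peak began 495 bp downstream of it. This start site lies inside the gene span, which begins at 72624430. No peak of either list lay within 2000 bp of that end of the span. The promoter is shown because the peak stops just short of it. It runs from 250 bases before to 50 bases after the start site (chr13:72628570-72628869, plus strand, RefSeq, GRCm38.p6), with CG dinucleotides in capitals.
Irx2 promoter: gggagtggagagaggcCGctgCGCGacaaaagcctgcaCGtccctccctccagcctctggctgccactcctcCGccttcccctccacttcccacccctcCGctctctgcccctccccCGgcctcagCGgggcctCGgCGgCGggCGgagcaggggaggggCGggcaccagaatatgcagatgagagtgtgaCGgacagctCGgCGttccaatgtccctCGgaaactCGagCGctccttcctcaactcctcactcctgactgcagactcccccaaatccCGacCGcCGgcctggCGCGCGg
It held 25 CG dinucleotides, a number reached by 24.8% of the 21263 promoters of protein-coding genes in the table, whose median was 13. A long noncoding RNA gene, Gm20554, starts from the opposite strand at 72628564, and its start site was also free of peaks, with the Eed cKO peak 751 bp away.

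Irx4, a gene known for its role in the ventricles of the heart, lies at the higher-numbered end of the chromosome 13 cluster (chr13:73259589-73269622, 10.0 kb). In Eed cKO 1 peak of 19.7 kb (chr13:73254713-73274416) contained the whole gene, and 2.72% of Eed cKO peaks were at least as wide. In control a peak of 6.41 kb (chr13:73267794-73274201) covered 18.2% of the gene span, at its higher-numbered end. The control peak lay entirely inside the Eed cKO peak, and the higher-numbered edges of the peaks were close together. The covered length in Eed cKO was 3.07 times that in control, with 13.3 kb covered in Eed cKO alone.

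The start site of Irx4, at 73260497 on the plus strand, lay under the Eed cKO peak, while the control peak began 7297 bp downstream of it. All 300 bases of the promoter were thus covered in Eed cKO and none in control. Over all promoters in the table, 3.83% met an Eed cKO peak and 6.63% a control peak. The promoter is shown because, of the 3 Irx promoters in the table, it differs between the lists (chr13:73260247-73260546, plus strand, RefSeq, GRCm38.p6, CG in capitals).
Irx4 promoter: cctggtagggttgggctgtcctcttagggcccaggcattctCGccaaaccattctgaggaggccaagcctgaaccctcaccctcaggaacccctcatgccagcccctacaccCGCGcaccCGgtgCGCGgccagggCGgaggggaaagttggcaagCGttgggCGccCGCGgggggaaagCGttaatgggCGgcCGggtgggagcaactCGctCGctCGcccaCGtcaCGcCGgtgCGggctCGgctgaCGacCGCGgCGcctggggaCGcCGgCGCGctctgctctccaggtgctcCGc
Its 31 CG dinucleotides were the most among the 3 Irx promoters in the table, and 14.0% of all promoters held at least as many. Irx1, Irx5 and Irx6 have no entry in that table.

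Irx1, at the lower-numbered end of the chromosome 13 cluster (chr13:71958232-71963723, 5.49 kb), acts in limb and lung development. The gene lay wholly inside a peak in both lists. That peak was 15.6 kb wide in Eed cKO (chr13:71954425-71970020) and 20.3 kb wide in control (chr13:71956714-71977059). The Eed cKO peak reached further on the lower-numbered side, and the control peak further on the other. Of the sequence covered in control, 65.4% was also covered in Eed cKO, and 85.3% of the Eed cKO peak lay inside the control peak. Gene spans wholly inside peaks were 3 of 6 among the Irx genes in Eed cKO, at Irx1, Irx4 and Irx5, against 1.01% of all genes. In control Irx1 was the only member, against 1.6% of all genes.

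Irx3, the first gene of the chromosome 8 cluster (chr8:91798511-91801654, 3.14 kb), acts in the heart's conduction system and is contacted by enhancers in the introns of the distant Fto gene. It had nearly the same covered length in both lists, 13.2 kb in Eed cKO and 13.4 kb in control. This depended on the window and the list: Eed cKO minus control was -0.278 kb here, -7.42 kb with 100 kb on either side and -3.65 kb with the peaks at or above each list's median width. Each list had 2 peaks, 1 over the gene body and 1 beyond its start. The peak over the gene was 9.79 kb in Eed cKO (chr8:91791458-91801249) and 6.45 kb in control (chr8:91794681-91801132), and it covered 87.1% of the gene span in Eed cKO and 83.4% in control. The peak beyond the start was 3.37 kb in Eed cKO (chr8:91802509-91805876) and 6.99 kb in control (chr8:91802719-91809704). The Eed cKO list thus covered more on the lower-numbered side and less on the higher-numbered side, where Irx3os lies.

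Both lists left a gap at the start of Irx3. The start site, at 91801654 on the minus strand, lay in a peak-free stretch of 1259 bp in Eed cKO and 1586 bp in control. Promoters free of peaks with a peak within 2000 bp on each side made up 0.0988% of all promoters in Eed cKO and 0.216% in control. Few promoters met a peak at all, 3.83% in Eed cKO and 6.63% in control. The share among promoters with peaks nearby was not computed. The promoter is shown because its 300 bases lie inside this shared gap, of which they are a part (chr8:91801605-91801904, minus strand, RefSeq, GRCm38.p6, CG in capitals).
Irx3 promoter: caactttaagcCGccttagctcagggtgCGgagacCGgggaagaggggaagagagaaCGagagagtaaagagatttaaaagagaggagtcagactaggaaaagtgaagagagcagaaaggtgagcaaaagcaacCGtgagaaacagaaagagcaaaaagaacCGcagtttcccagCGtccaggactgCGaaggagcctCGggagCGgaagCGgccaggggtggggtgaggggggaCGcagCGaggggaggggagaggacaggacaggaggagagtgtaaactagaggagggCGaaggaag
It held 14 CG dinucleotides, the fewest of the 3, and 48.9% of all promoters held at least as many. The gap ended before the start site of Irx3os, a long noncoding RNA gene on the opposite strand at 91803336, whose start site lay under a peak in both lists.

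Irx5, the paralogue of Irx2 and the middle gene of its cluster (chr8:92357796-92361456, 3.66 kb), acts in heart, retina and limb. An Eed cKO peak of 5.80 kb (chr8:92356700-92362502) contained the whole gene and met no control peak. A second Eed cKO peak of 6.74 kb (chr8:92363501-92370244) lay 2.04 kb beyond the gene. It overlapped the single control peak, 4.56 kb wide (chr8:92363300-92367860), which lay 1.84 kb beyond the gene and covered none of it. The covered length was 12.5 kb in Eed cKO and 4.56 kb in control, 2.75 times as much in Eed cKO. Irx5 counts as having a control peak at a gene end through this peak, and with a limit of 1000 bp it had none. That left 4 of 6 members in control and 6 of 6 in Eed cKO. The shares of all genes at that limit are not given here. The long noncoding RNA gene Crnde starts on the opposite strand at 92356120, and the Eed cKO peak came within 580 bp of that start without reaching it.

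Irx6, the gene of the chromosome 8 cluster with the least coverage in Eed cKO (chr8:92674289-92680956, 6.67 kb), is known from bipolar cells of the retina. The Eed cKO peak was 8.08 kb wide (chr8:92669242-92677324), and 97.6% of it lay inside a control peak of 8.48 kb (chr8:92668655-92677134). The lists covered 45.5% of the gene span in Eed cKO and 42.7% in control, at its lower-numbered end. Control had a further peak of 3.46 kb (chr8:92663903-92667366), 6.92 kb from the gene, with no Eed cKO counterpart. Another control peak of 10.4 kb began 2.54 kb outside the window and met no Eed cKO peak either. The covered length in the window was 8.08 kb in Eed cKO and 11.9 kb in control. Eed cKO minus control was -3.86 kb here, -14.3 kb with 100 kb on either side, and -0.397 kb with the peaks at or above each list's median width or with the control list trimmed to its widest peaks.

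**Figure D2:**
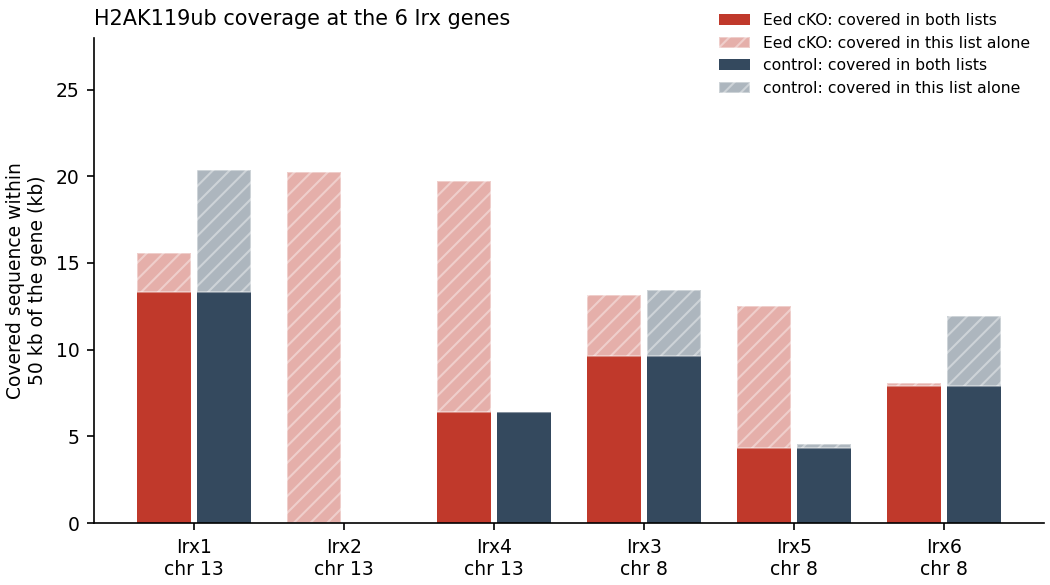
Covered sequence in kb within each Irx gene's span and 50 kb on either side, with Eed cKO bars in red left of control bars in dark blue. Solid parts are covered in both lists and hatched parts in that list alone: at Irx2, Irx4 and Irx5 most of the Eed cKO bar is hatched (20.2, 13.3 and 8.19 kb), while at Irx1, Irx3 and Irx6 the solid part makes up most of every bar.

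Within 50 kb of the genes, the clusters had similar shares of control coverage that was also covered in Eed cKO, and differed in what was added. Of the control-covered sequence in the members' windows, 73.7% was also covered in Eed cKO on chromosome 13 and 73.0% on chromosome 8, against 36.8% over the genome. The likeness was lost with wider windows: the share was 73.7% on chromosome 13 and 46.0% on chromosome 8 with 100 kb on either side, and 67.6% on chromosome 13 and 43.6% on chromosome 8 over the whole clusters. Eed cKO peaks met 2 of 2 control peaks on chromosome 13 and 4 of 5 on chromosome 8, against 37.9% of all control peaks. With so few peaks the 95% Wilson intervals ran from 34.2% to 100% on chromosome 13 and from 37.6% to 96.4% on chromosome 8. They cover counting error only and take peaks as independent draws, although peaks of 1 list are not replicates. Sequence covered in Eed cKO alone amounted to 35.8 kb on chromosome 13 and 11.9 kb on chromosome 8. Total coverage at the chromosome 13 genes was 55.5 kb in Eed cKO and 26.8 kb in control, and at the chromosome 8 genes 33.8 kb in Eed cKO and 29.9 kb in control. Among paralogues, Irx2 and Irx5 both had more coverage in Eed cKO, while Irx1 had less and Irx3 nearly the same within 50 kb. Irx4 and Irx6 went opposite ways within 50 kb. Over the gene span alone both had more in Eed cKO, by 8.21 kb at Irx4 and 0.19 kb at Irx6. These are 3 genes per cluster in 1 list per genotype, and the difference between the clusters was not tested.

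The sequence between the genes set the clusters further apart. From 50 kb before the first gene to 50 kb after the last, the chromosome 13 cluster (1411 kb) held 12 Eed cKO peaks covering 116 kb and 6 control peaks covering 58.6 kb. Over the same kind of stretch, the chromosome 8 cluster (982 kb) held 6 Eed cKO peaks covering 41.4 kb and 11 control peaks covering 64.3 kb. Coverage in Eed cKO was therefore 198% of control on chromosome 13 and 64.4% on chromosome 8.

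Between Irx1 and Irx2, outside the members' windows, Eed cKO had 2 peaks (20.9 kb) and control had 4 (31.9 kb). Both Eed cKO peaks matched control peaks closely. The pair at chr13:72357831-72374233 in Eed cKO and chr13:72356827-72373454 in control was 16.4 kb and 16.6 kb wide, and 95.3% of the Eed cKO peak lay inside its control partner. The control peaks at chr13:72292807-72300754 and chr13:72347619-72350143 met no Eed cKO peak. Between Irx2 and Irx4, Eed cKO had the 6 outer peaks of the Irx2 run (39.5 kb) and control had none. Between Irx3 and Irx5, Eed cKO had 1 peak (7.66 kb) and control had 6 (34.4 kb), of whose sequence 18.0% was also covered in Eed cKO. The control peaks there without a partner included a peak of 11.96 kb (chr8:91898438-91910393). Between Irx5 and Irx6 neither list had a peak. The chromosome 8 cluster thus had peaks at all 3 genes in both lists. Of the 6 control peaks between Irx3 and Irx5, 4 had no Eed cKO partner. Most control peaks of the genome had none either, as 37.9% of them were met by an Eed cKO peak.

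No other protein-coding gene overlapped the members' windows. They held 9 long noncoding RNA genes and 3 pseudogenes. Of the noncoding RNA genes, 3 had a peak on their span in Eed cKO and 2 in control, all of them next to Irx3, and no pseudogene had one in either list. Gm39222 was wholly covered in both lists. Gm36380, at the lower-numbered side of Irx3, was covered to 44.2% in Eed cKO and had no control peak on its span. A control peak did lie within 2000 bp of an end of Gm36380, so by the gene-end measure it was marked in both lists. Irx3os was covered to 3.61% in Eed cKO and 9.05% in control.

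Set among all protein-coding genes, the Irx genes lay well inside the covered part of the distribution in Eed cKO, and were more spread in control. The covered share of the window had a median of 13.8% in Eed cKO and 8.51% in control over the 6 members, and a median of 0% in both lists over all genes. Among the 7209 genes with a peak of either list the medians were 2.302% in Eed cKO and 4.18% in control. Ranked by covered length in Eed cKO, the members stood between rank 492 (Irx2) and rank 1857 (Irx6) of 21887 genes. In control they stood between rank 820 (Irx1) and rank 4215 (Irx5), with Irx2 among the genes at 0 kb. Ranked by covered length in Eed cKO minus control, Irx2 (20.2 kb) was at rank 37, Irx4 (13.3 kb) at 124 and Irx5 (7.99 kb) at 329. Irx3 (-0.28 kb), Irx6 (-3.86 kb) and Irx1 (-4.75 kb) were at ranks 17165, 19217 and 19654. In this ranking, genes with equal coverage in both lists stand ahead of every gene with less in Eed cKO. Of the 21887 genes, 2338 had more in Eed cKO and 4870 had less, and the rest were tied. A late rank therefore does not mean a large difference, as Irx3 shows.

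**Figure D3:**
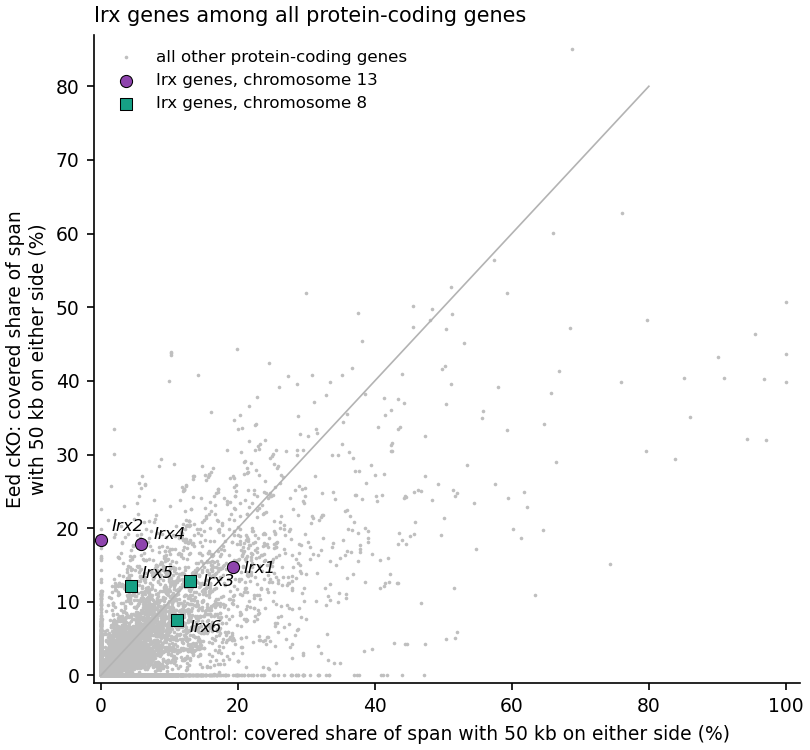
Covered share (%) of the gene span with 50 kb on either side, Eed cKO on the vertical and control on the horizontal axis, for all protein-coding genes (grey points) and the Irx genes (circles for chromosome 13, squares for chromosome 8); the line marks equal shares. Irx2, Irx4 and Irx5 lie above the line, Irx2 at 0% in control and 18.4% in Eed cKO, while Irx1, Irx3 and Irx6 lie close to it or below.

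By the pair of covered shares, the genes nearest to the mean of the chromosome 13 members (17.0% in Eed cKO, 8.37% in control) were Dlk1, Rap1gap and Mtg2, each within 0.828 percentage points. Nearest to the mean of the chromosome 8 members (10.8% in Eed cKO, 9.54% in control) were Tcte1, Nfyc and Psd2, each within 0.353 percentage points. The likeness rests on 2 values per gene.

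The other TALE homeobox genes, of the Meis, Pbx, Pknox, Tgif and Mkx kinds, are relatives of the Irx genes. Among these 12 genes, 0 had an Eed cKO peak at a gene end, against 7.4% of all protein-coding genes. The 0 allows a share of up to 24.2% (Wilson, counting error only, genes taken as independent), a range that includes the share of all genes. A control peak lay there at 4 of the 12, against 11.7% of all genes. The 4 were Meis1, Meis2, Pknox2 and Mkx. Meis1, a Hox cofactor, had 7 control peaks covering 70.7 kb of its window and no Eed cKO peak. At Meis2, also a Hox cofactor, 1.92 kb was covered in Eed cKO and 24.1 kb in control, and the peaks did not overlap. The covered length was larger in Eed cKO at 1 of the 12 genes, Tgif2, smaller at 8 and 0 kb in both lists at 3. At the Irx genes it was larger in Eed cKO at 3 of 6, and over all genes it was larger at 10.7% and smaller at 22.3%. The genes differ in length, and with it the windows differ, and the difference between these groups was not tested.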

How the data were processed

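The authors deposited 1 list of H2AK119ub peaks per genotype, giving chromosome, start and end in mm10 per the file headers. The submitters' processing notes name Bowtie2 2.3.3.1 and SAMtools 1.9. How peaks were called, at which threshold and whether inputs were used is not given in the sources used here. Whether and how the 2 libraries were joined is not given either, and read depth is unknown.

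Starts were converted to positions counted from 1. For all 21887 protein-coding genes (RefSeq, GRCm38.p6), peaks overlapping the span with 50 kb on either side by at least 1 bp were counted, and covered length was summed inside that window. A gene end is 2000 bp on either side of either end of the span. The gene table gives no strand. Start sites and promoters came from the RefSeq promoter table, which holds 3 of the 6 Irx genes. Its start site can lie inside the gene span, as at Irx2. Genes were named by rule: the 6 members, genes in their windows, other TALE genes with a gene-end peak, the 3 genes most like each cluster's mean, Eed and cell type markers. Tgif2, Tgm5, Tgm7, Zbtb7b, Krt4, Krt16, Krt17 and Krt42 were chosen after their values were seen. The members and lists were chosen with earlier results of these data known. Other peak sets (wider peaks, a trimmed control list, merging within 1000 bp), flanks of 20 and 100 kb, whole clusters, gene ends of 1000 and 5000 bp and a 50% overlap were tried as alternatives. On simulated data all 1000 windows matched a base-by-base count, and all 200 planted gene-end peaks were found. Tools were pandas 2.3.3, numpy 2.4.6 and matplotlib 3.10.9 under Python 3.11.15, with scipy 1.17.1 for Wilson intervals.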

Additional observations from a re-analysis of the deposited data

How the results depend on the processing

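Peak counts depended mostly on the window. With 100 kb on either side the chromosome 13 genes had 9 Eed cKO peaks, and the chromosome 8 genes had 8 control peaks. With 1 window per cluster the counts were 12 in Eed cKO and 6 in control on chromosome 13, and 11 in control on chromosome 8. The share of control-covered sequence also covered in Eed cKO was then 67.6% on chromosome 13 and 43.6% on chromosome 8, and 46.0% on chromosome 8 with 100 kb. On chromosome 8 it was 70.6% with the peaks at or above each list's median width, 82.6% with the control list trimmed to its widest peaks, and 73.7% with peaks within 1000 bp merged. It was 62.5% with the Eed cKO list alone cut at its median width, an alternative chosen after seeing the data. With the trimmed control list, 100% of control peaks on chromosome 8 were met. Within 2000 bp of the start site, known for 3 Irx genes, 3 had an Eed cKO peak and 1 a control peak. The share of all promoters by this measure is not given here, so these counts have no base rate. By the narrower measure of a peak on the 300 bases of the promoter, the shares were 3.83% in Eed cKO and 6.63% in control. Over the gene span alone, also chosen after seeing the data, Eed cKO minus control turned to 0.117 kb at Irx3 and 0.19 kb at Irx6, whose values also moved with the flank and the list, as given beside them. The sign at Irx4 and Irx5 was the same in all alternatives run. At Irx2 it could not reverse in any of them, because the nearest control peak lay 251 kb away, beyond every flank tried. No paired analysis was possible because each genotype has 1 peak list, and for the same reason no replicate could be left out. Read depth and the calling threshold are unknown, which limits every count.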

Other observations

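Of 15374 protein-coding genes with no control peak within 50 kb, 696 had an Eed cKO peak there. By covered length in Eed cKO, Irx2 (20.2 kb) was at rank 3 of these, behind Tgm5 and Tgm7 (27.8 kb each), neighbouring transglutaminase genes whose windows hold the same peaks. Zbtb7b (18.5 kb) and the keratin gene Krt4 (18.4 kb) came next, followed by Krt16, Krt17 and Krt42 (16.7 kb each), which also share their peaks. With 100 kb on either side, 13155 genes had no control peak, 758 of them had an Eed cKO peak, and Irx2 was at rank 1 with 57.2 kb covered by 7 peaks, 27.3% of its window. These ranks were looked up after the Irx2 values were seen and carry no test.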
